A study of Homo sapiens with 9 samples.

Results

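The 8 genes described here encode the human DNA topoisomerases TOP2A, TOP2B, TOP1, TOP1MT, TOP3A and TOP3B and the tyrosyl-DNA phosphodiesterases TDP1 and TDP2. They were chosen by gene symbol, with earlier results of these data known. All 8 were among the 20637 genes of the table and among the 12569 genes tested. Polyadenylated RNA came from HL-60 cells, an established line of promyelocytic acute myeloid leukaemia, in 3 groups of 3 biological replicates. Parental cells were the reference. HRA cells were resistant to cytarabine (Ara-C, a nucleoside analogue that stops DNA synthesis) and grew with 100 nM of it, and HRD cells were resistant to daunorubicin (DNR, an anthracycline) and grew with 30 nM of it. Each resistance was represented by a single resistant population with its drug in the medium, so resistance, drug exposure and the history of that population cannot be told apart.

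Topoisomerases remove the strain and the links that build up in DNA. Type II enzymes (TOP2A and TOP2B) cut both strands and pass another duplex through the gap, type IB enzymes (TOP1 in the nucleus, TOP1MT in mitochondria) nick a single strand and let it turn, and type IA enzymes (TOP3A and TOP3B) pass single strands. Each holds the cut DNA through a tyrosine. Anthracyclines trap TOP2A and TOP2B in this state, TDP2 releases DNA ends from a trapped type II enzyme, and TDP1 does so for TOP1. TOP2A is made mainly in dividing cells, while TOP2B is also made in resting cells.

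Libraries held 20822709 to 66563328 reads, and the lowest count of any of the 8 genes in any library was 695 reads (TOP1MT). Myeloid markers were present, with MPO at 199686 to 314199 and CD33 at 2347 to 3132 normalized reads. PRTN3 (549 to 3570), AZU1 (383 to 1666) and CTSG (3914 to 11814) were present as well. The exception among these 6 markers was ELANE, a defining protease of promyelocytes, at 0 to 4.06. Summed markers of T cells reached at most 31.1 and those of B cells 40.6, while COL1A1 of fibroblasts reached 0.698. Normalized read counts are reads scaled by 1 factor for each library.

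The sequence before the TOP2A start is shown because TOP2A had the largest change of the 8 genes in HRD cells. The one before the upstream start of its paralogue TOP2B is shown because the 2 genes had values of opposite sign between the resistant populations. The TOP2B call between them was lost under 11 of 21 alternative settings. Both sequences are from RefSeq (GRCh38.p14), read 5′ to 3′ on the minus strand, at chr17:40417951-40418146 and chr3:25664940-25665157. Capitals mark CCAAT boxes, which read ATTGG in this orientation and are bound by the factor NF-Y. The bases that GENCODE 29 annotates as exon, 54 next to the TOP2A start and 32 next to the TOP2B start, are not printed.
TOP2A: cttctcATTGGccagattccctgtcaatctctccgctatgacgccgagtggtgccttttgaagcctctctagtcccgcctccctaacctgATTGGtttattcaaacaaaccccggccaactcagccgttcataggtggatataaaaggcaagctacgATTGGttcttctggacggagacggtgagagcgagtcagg
TOP2B: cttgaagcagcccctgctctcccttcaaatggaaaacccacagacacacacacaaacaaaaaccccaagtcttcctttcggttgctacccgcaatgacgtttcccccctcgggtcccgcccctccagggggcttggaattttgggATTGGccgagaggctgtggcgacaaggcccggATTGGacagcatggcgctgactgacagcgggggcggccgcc

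In the full 250 bases before the start, TOP2A had 4 matches to CCAAT or ATTGG, and 0.874% of the 35116 RefSeq promoter entries had at least 4. The match nearest the start, 53 to 49 bases before it, lay in the 54 bases annotated as exon and not printed. At least 3 matches, the number in the printed TOP2A sequence, occurred in the full 250 bases of 2.93% of entries. TOP2A also had 2 matches to TTTGAA or TTCAAA, the letters of the cell-cycle homology region, where 1.72% of entries had at least 2. The upstream start of TOP2B and the start of TDP1 had 1 such match each, where 13.3% of entries had at least 1. The other TOP2B start, TDP2, TOP1, TOP3A and TOP3B had 0. The upstream start of TOP2B had 2 CCAAT matches (9.53% of entries had at least 2) and its other start had 0. No CCAAT match lay in the same window of TDP1, TDP2, TOP1, TOP3A or TOP3B. None of the TOP2A matches overlapped another, and a match is not evidence of binding. The table gave sequences for 7 of the 8 genes, and TOP1MT was not among them.

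TOP2A was the member with the largest fall in daunorubicin-resistant cells. Its normalized read counts were 27577, 30142 and 34136 in parental replicates 1, 2 and 3, 25971, 24054 and 25229 in HRA, and 17892, 15305 and 14926 in HRD. Every HRD library lay below every other library, and the HRA libraries lay below the parental ones. TOP2A fell 1.91-fold in HRD, from 30618 ± 3305 to 16041 ± 1614 (SD, n = 3 in each group here and below), a log2 fold change of −0.93 ± 0.10 (SE) with a 95% interval of −1.16 to −0.71 and an adjusted p of 0.000105 (limma). It was also lower in HRD than in HRA, by −0.65 ± 0.10 (adjusted p = 0.000996). The difference between HRA and parental cells was −0.28 ± 0.10 and did not pass in limma (adjusted p = 0.0882, interval −0.51 to −0.06), although DESeq2 put it at an adjusted p of 0.0448. Over all 21 alternative settings the adjusted p of this last value was between 0.0448 and 0.363. In bulk RNA, fewer cells in the phases that make TOP2A and less TOP2A RNA per cell cannot be told apart.

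TOP2B, the type II enzyme that is not tied to division, did not fall with its paralogue. Normalized read counts were 13951, 15429.6 and 16532 in parental cells, 13983, 13389.8 and 13999.8 in HRA, and 17064, 15719 and 16320.4 in HRD. The HRD libraries all lay above the HRA libraries, while parental libraries overlapped both. Against parental cells, the log2 fold change was 0.10 in HRD (interval −0.08 to 0.28, adjusted p = 0.432) and −0.15 in HRA (−0.33 to 0.04, adjusted p = 0.254). Between the resistant populations, TOP2B was higher in HRD by 0.25 ± 0.08 (adjusted p = 0.0434). That call was lost by edgeR (adjusted p = 0.0526), without the filter on low values (0.0795), without the variance trend (0.0674), without parental replicate 2 and without each HRA or HRD library (0.0597 to 0.130).

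**Figure D1:**
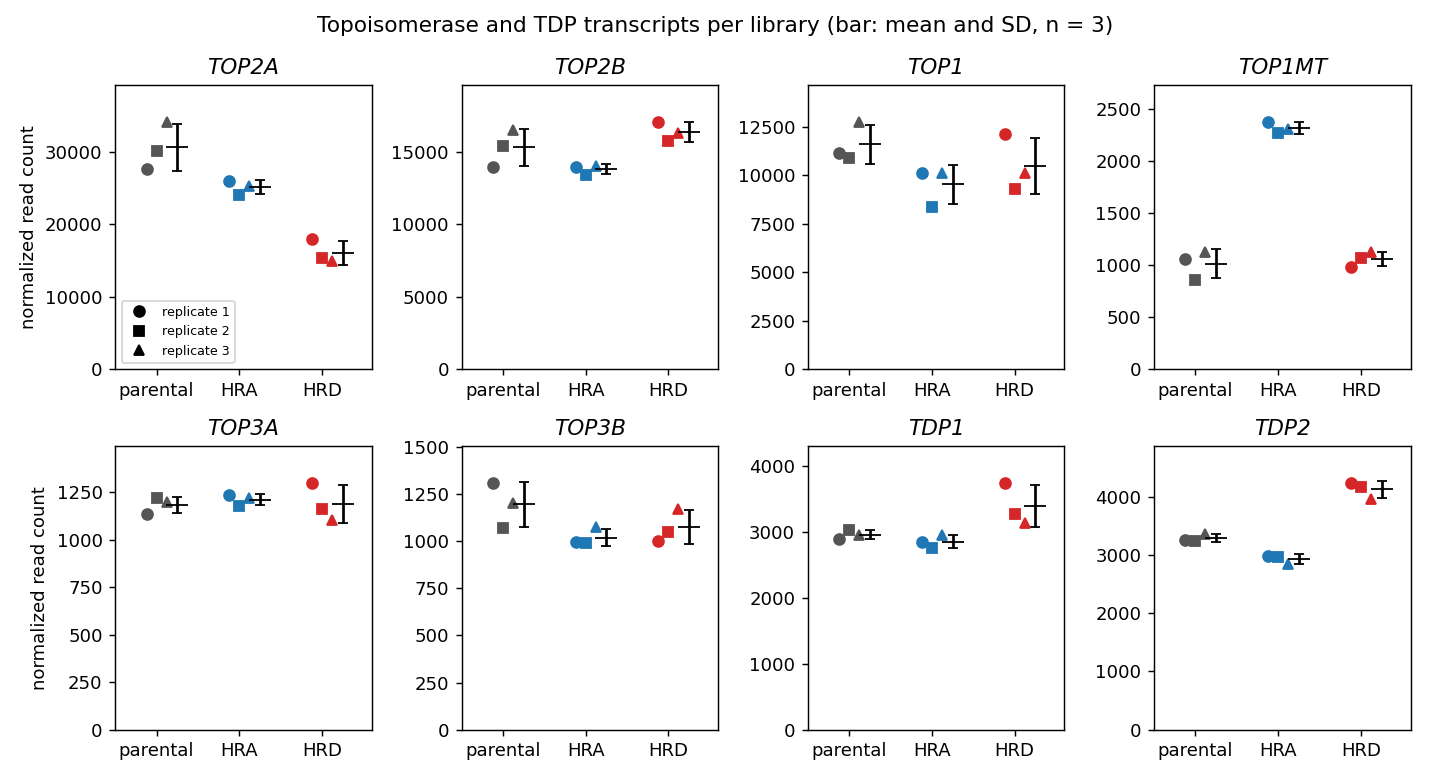
Normalized read count (vertical axes, each from 0) of the 8 genes in every library, by group, with symbols for replicates 1 to 3 and bars for the mean and SD of 3 replicates. TOP2A was lowest in all 3 HRD libraries (14926 to 17892), TOP1MT highest in all 3 HRA libraries (2265 to 2373) and TDP2 highest in all 3 HRD libraries (3967 to 4239).

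The balance of the type II pair therefore differed between groups. Per kb of exon, the ratio of TOP2A to TOP2B was 1.85, 1.83 and 1.94 in parental replicates 1, 2 and 3, 1.74, 1.69 and 1.69 in HRA, and 0.984, 0.914 and 0.858 in HRD. TOP2A was thus the more abundant transcript of the pair in all 6 parental and HRA libraries and the less abundant in all 3 HRD libraries. This last order depends on the exon lengths used (5.88 and 5.517 kb), since without them the ratio in HRD replicate 1 was 1.05. Means were 1.87 ± 0.055, 1.71 ± 0.032 and 0.918 ± 0.063 in parental, HRA and HRD cells. The ratio is within each library and does not depend on the scaling between libraries, and no test was made of it.

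Levels per kb of exon placed TOP2A first in parental cells, at 5207 ± 562, before TOP1 (3106 ± 270) and TOP2B (2774 ± 235), whose libraries overlapped. TDP2 followed at 1327 ± 27.1 and TDP1 at 637 ± 15.6. TOP1MT (274 ± 38.5), TOP3A (256 ± 9.53) and TOP3B (256 ± 25.5) were lowest and did not differ beyond their spread. In HRA the order was the same for the 4 most abundant, and TOP1MT (628 ± 14.8) stood beside TDP1 (614 ± 21.0). In HRD the 3 most abundant were TOP2B (2967 ± 122), TOP1 (2811 ± 389) and TOP2A (2728 ± 275), with overlapping libraries. TOP2A made up 37.6% ± 1.25 of the summed level per kb of the 8 genes in parental cells, 34.9% ± 0.36 in HRA and 23.3% ± 0.77 in HRD.

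**Figure D2:**
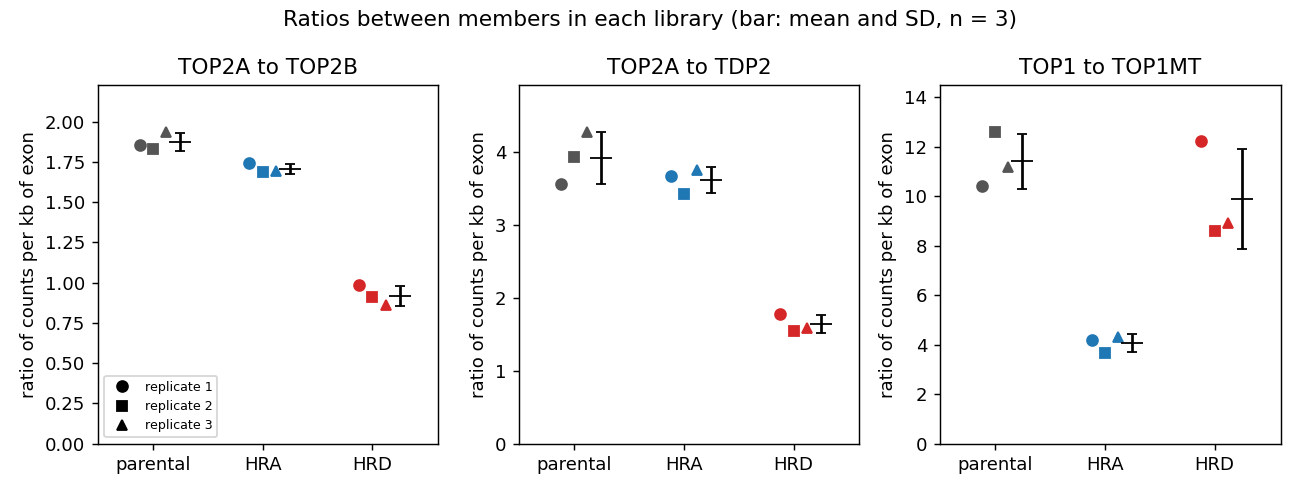
Ratios of counts per kb of exon (vertical axes from 0) for TOP2A to TOP2B, TOP2A to TDP2 and TOP1 to TOP1MT in each library, with the mean and SD of 3 replicates. TOP2A to TOP2B lay between 1.69 and 1.94 in parental and HRA libraries and between 0.858 and 0.984 in HRD libraries.

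TDP2, the enzyme that frees DNA ends from trapped type II topoisomerases, rose in HRD. Its normalized read counts were 3264, 3238 and 3365 in parental cells, 2981, 2968 and 2836 in HRA, and 4239, 4173 and 3967 in HRD, so that the 3 groups did not overlap. It rose 1.25-fold in HRD, from 3289 ± 67.1 to 4126 ± 142 (log2 fold change 0.33 ± 0.07, adjusted p = 0.00564), and was 1.41-fold higher in HRD than in HRA (0.49 ± 0.07, adjusted p = 0.000392). In HRA it was lower than in parental cells by −0.17 ± 0.07, which did not pass (adjusted p = 0.119). The rise in HRD kept its size without the replicate 2 libraries of every group (0.31), but with 2 libraries a group it did not pass (adjusted p = 0.102). The ratio of TOP2A to TDP2 per kb went from 3.92 ± 0.36 in parental cells and 3.61 ± 0.17 in HRA to 1.64 ± 0.12 in HRD.

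TDP1, which acts on trapped TOP1, moved less. Normalized read counts were 2893, 3038 and 2954 in parental cells, 2851, 2758 and 2953 in HRA, and 3748.5, 3272 and 3144 in HRD. All HRD libraries lay above the others, with replicate 1 the highest. The difference from parental cells was 0.19 ± 0.08 (interval 0.01 to 0.37) and did not pass (adjusted p = 0.118). From HRA it was 0.24 ± 0.08 and passed (adjusted p = 0.0413), a call that was lost without parental replicate 2, without each HRA library and without HRD replicates 1 or 2 (adjusted p 0.0572 to 0.129). It was also lost with only the 2 groups in the fit (0.0595), without the filter on low values (0.0644) and without the variance trend (0.0726).

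TOP1MT, the topoisomerase of mitochondrial DNA, was the member that changed most in cytarabine-resistant cells. It stood at 1057, 853 and 1126 normalized reads in parental cells, at 2373, 2265 and 2306 in HRA, and at 979, 1069.5 and 1119.9 in HRD. Every HRA library lay above every other library, and the parental and HRD libraries overlapped. The rise in HRA was 2.3-fold, from 1012 ± 142 to 2314 ± 54.5 (log2 fold change 1.20 ± 0.11, interval 0.97 to 1.44, adjusted p = 8.26e-05). Against parental cells, HRD differed by 0.07 (interval −0.17 to 0.30, adjusted p = 0.695), a value that turned to −0.049 without parental replicate 2, and HRD lay below HRA by −1.13 ± 0.11 (adjusted p = 3.13e-05).

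TOP1, the main relaxing enzyme of transcribed chromatin, had the largest SE of the 8 genes in the fit. It stood at 11169, 10899 and 12764 in parental cells, at 10123, 8372 and 10119 in HRA, and at 12119, 9299 and 10106 in HRD. Parental and HRA libraries did not overlap, and HRD libraries overlapped both. The difference between HRA and parental cells was −0.29 ± 0.12 (adjusted p = 0.120). Deviations of these 2 groups were correlated by replicate number. With that number as a block in limma, the same value had an adjusted p of 0.0432 and passed. In HRD the difference from parental cells was −0.15 (interval −0.40 to 0.10, adjusted p = 0.394). Within each library the ratio of TOP1 to TOP1MT per kb was 10.4 to 12.6 in parental cells, 3.65 to 4.33 in HRA and 8.58 to 12.2 in HRD.

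Neither type IA enzyme was called in any comparison. TOP3A, which works with BLM and RMI proteins to take apart joined DNA molecules, ran from 1105 to 1299.8 over all 9 libraries, and its groups overlapped. Its difference from parental cells was 0.03 in HRA (interval −0.15 to 0.22) and 0.00 in HRD (−0.18 to 0.19). TOP3B, which also acts on RNA with TDRD3, ran from 989 to 1309.8, with differences of −0.23 in HRA (−0.45 to −0.01, adjusted p = 0.148) and −0.15 in HRD (−0.37 to 0.07, adjusted p = 0.311). An annotated antisense gene shares up to 4052 bases of a TOP3B exon and whether reads were counted by strand is not given in the sources used here, so its reads and those of TOP3B cannot be told apart.

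**Figure D3:**
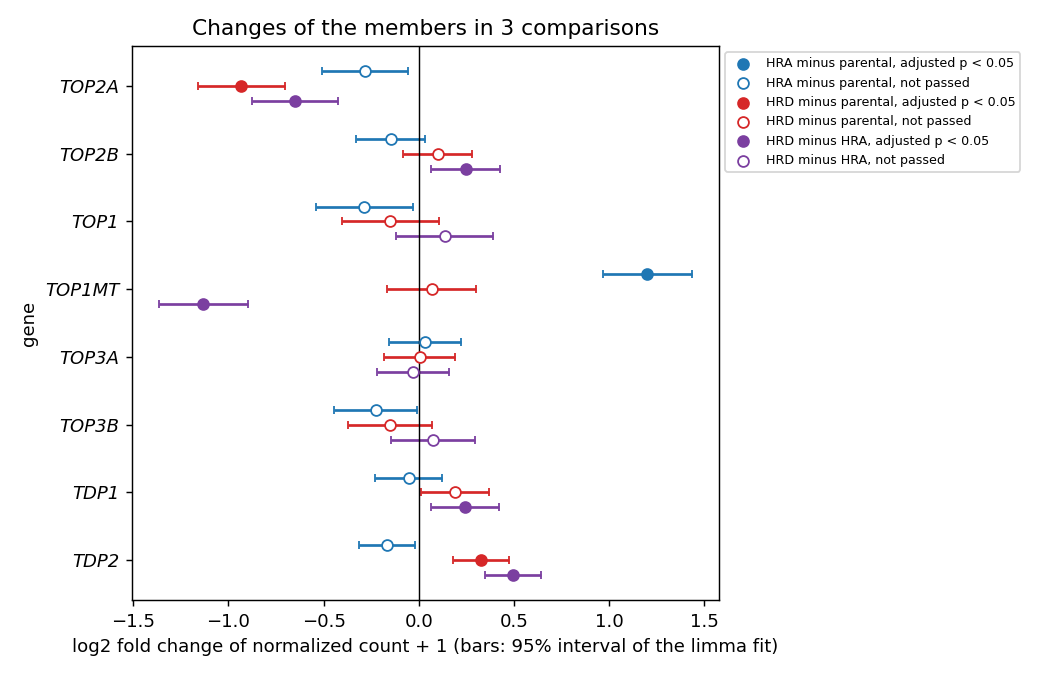
Log2 fold change (horizontal axis) with its 95% interval from the limma fit for the 8 genes in 3 comparisons, filled where the adjusted p is below 0.05. Filled points are TOP1MT for HRA (1.20), TOP2A (−0.93) and TDP2 (0.33) for HRD, and TOP2A, TOP2B, TOP1MT, TDP1 and TDP2 for HRD against HRA.

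By the limma test at an adjusted p below 0.05, 1 of the 8 genes was called in HRA against parental cells, where 15.2% of all tested genes were called. With the replicate number as a block, 2 of the 8 and 2774 of all 12569 tested genes were called there. In HRD against parental cells 2 of 8 were called, against 22.8% of all genes. Between HRD and HRA 5 of 8 were called, against 30.1%. Groups did not overlap for 4, 3 and 5 of the 8 genes, where 38%, 35.3% and 47% of all tested genes had no overlap. Median log2 fold changes of the 8 genes were −0.16, 0.04 and 0.11, beside −0.01, 0.01 and 0.00 over all tested genes.

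TOP2A did not fall alone on its chromosome. Of the 10 nearest tested genes on each side of it on chromosome 17, 18 of 20 fell in HRD and none rose, with a median log2 fold change of −0.87 beside −0.93 for TOP2A. RARA, the retinoic acid receptor gene next to it on one side, fell by −0.95 ± 0.17 (adjusted p = 0.00213), and IGFBP4 on the other side by −1.20 ± 0.30 (adjusted p = 0.0146). The lowest of the 20 was CCR7, a chemokine receptor gene (−3.44), and KRT10 (−0.24, adjusted p = 0.370) and JUP (−0.84, adjusted p = 0.0685) did not pass. CCR7, KRT10 and JUP were singled out after their values were seen. Over all 663 other tested coding genes of chromosome 17 the median in HRD was −0.19, and 588 of them had a higher value than TOP2A. Of these 663 genes 220 fell and 53 rose, where 12% and 10.7% of all tested genes were lower and higher. In HRA the 20 neighbours of TOP2A had a median of −0.12, and 1 of them fell, where 26 of the 663 genes and 6.1% of all tested genes fell. Whether the fall of TOP2A shares its origin with that of its neighbours was not tested.

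Around TOP1MT, on chromosome 8, 5 of the 20 neighbours rose in HRA and none fell, where 9.13% and 6.1% of all tested genes were higher and lower. Their median was 0.50, with values from −1.04 to 1.59. The highest, RHPN1-AS1, singled out after its value was seen, had a higher value than TOP1MT (SE 0.48, adjusted p = 0.0437) from a mean of 4.88 normalized reads in parental cells. ZNF696 and RHPN1, next to TOP1MT, had values of 0.26 and 0.79 that did not pass. The 372 other tested coding genes of chromosome 8 had a median of 0.49 in HRA, 215 rose and 2 fell, and 16 had a higher value than TOP1MT. In HRD the chromosome median was 0.16 and that of the 20 neighbours 0.20.

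Beside TDP2, on chromosome 6, ACOT13, a thioesterase gene that starts next to it on the opposite strand, rose by 0.94 ± 0.10 in HRD (adjusted p = 8.78e-05), while ALDH5A1 on the other side had a value of 0.06 (adjusted p = 0.673). Of its 20 neighbours 6 rose and none fell in HRD, where 10.7% and 12% of all tested genes were higher and lower. Their median was 0.20, beside 0.08 over chromosome 6, where 94 of 561 other coding genes rose and 29 fell. TDP1 had 6 of 20 neighbours that rose and 1 that fell in HRD, with a median of 0.22. On chromosome 14 the median was −0.08, and of 365 other coding genes 37 rose and 78 fell. Around TOP1, on chromosome 20, 9 of 20 neighbours fell in HRD (median −0.35), where 90 of 283 other coding genes of the chromosome fell (median −0.22) and 12% of all tested genes were lower. TOP1 itself did not pass.

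**Figure D4:**
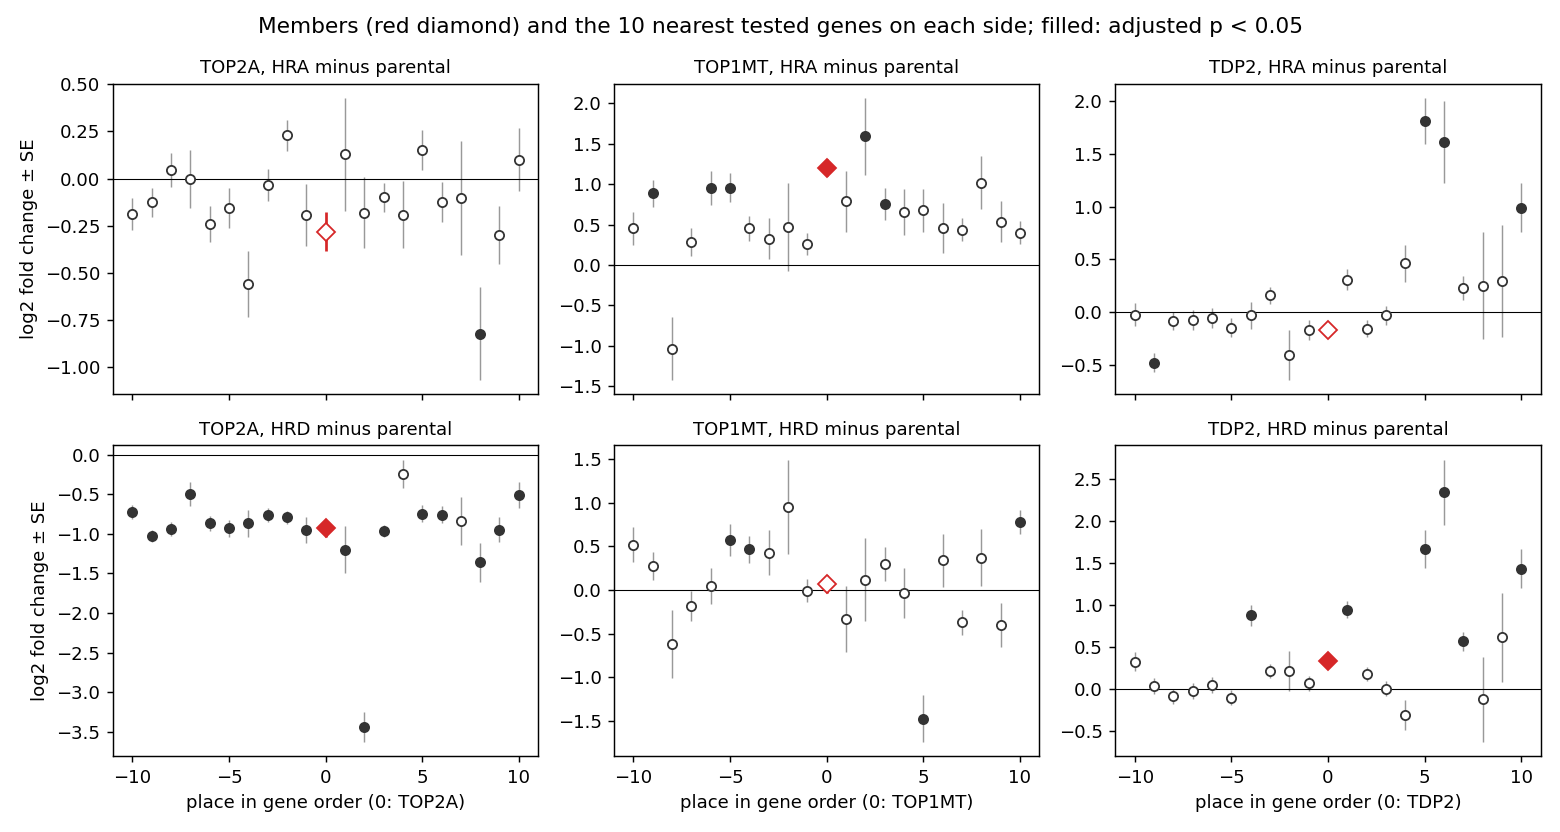
Log2 fold change with its SE (vertical axes) of TOP2A, TOP1MT and TDP2 (red diamonds, place 0) and of the 10 nearest tested genes on each side in gene order (horizontal axes), for HRA (top) and HRD (bottom) against parental cells, filled where the adjusted p is below 0.05. Around TOP2A 18 of 20 neighbours are filled below 0 in HRD, with a median of −0.87, where 12% of all tested genes were lower.

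The genes with the most similar profile over the 9 libraries were sought among 9796 tested genes with a mean of at least 100 as the highest Pearson correlations of log2 values, a description that mostly follows the group differences. For TOP2A these were RLIM (0.996), CTNNAL1 (0.995) and SYNRG (0.992), the last also on chromosome 17. For TOP1MT they were SLC1A5 (0.991), HOXA13 (0.980) and NMNAT1 (0.973), and for TDP2 PJA1 (0.990), SLC30A9 (0.987) and RAB5A (0.987).

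Mitotic genes did not follow TOP2A as a group. Of 20 genes of G2 and mitosis, 5 rose and 3 fell in HRD by the limma test (10.7% and 12% of all tested genes were higher and lower), with values from −0.41 to 0.44 and a median of −0.03, so that TOP2A lay below all of them. The kinase PLK1 rose from 2859 ± 21.6 to 3886 ± 228 (0.44 ± 0.10, adjusted p = 0.00936), PTTG1, the securin gene, by 0.42 ± 0.10, and CDC20, an activator of the anaphase-promoting complex, by 0.37 ± 0.09. The mitotic kinesin KIF11 fell by −0.41 ± 0.09, CDK1 by −0.35 ± 0.11 and AURKB by −0.34 ± 0.11. CDC20 no longer passed once parental replicate 3 was left out (adjusted p = 0.0511), and the CDK1 and AURKB calls were each lost without 7 of the 9 libraries in turn (adjusted p up to 0.144 and 0.113). Without the replicate 2 libraries 1 rose and 1 fell. In HRA none rose and 2 fell (9.13% and 6.1% of all genes), CENPF by −0.79 ± 0.16 and PLK1 by −0.41 ± 0.10, the second lost without parental or HRA replicate 2 (adjusted p up to 0.0701). Of 12 S phase genes, 1 fell in HRD, the polymerase POLE (−0.51 ± 0.09), and 1 rose in HRA, the helicase subunit MCM7 (0.46 ± 0.12, lost without HRA replicate 1, 2 or 3, adjusted p up to 0.0766).

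Condensins, which shape mitotic chromosomes together with TOP2A, had 8 subunits tested. In HRD 1 fell, near the 12% of all tested genes. It was NCAPD3 (−0.31 ± 0.09, lost without 4 of the 9 libraries in turn, adjusted p up to 0.0986), and none was called in HRA by limma or edgeR (3 had an unadjusted p below 0.05). With DESeq2, or with the replicate block, 2 were higher in HRA. Of CTCF and 5 cohesin genes, at whose sites TOP2B is found, SMC3 fell in HRD from 8773 ± 404 to 6499 ± 394 (−0.43 ± 0.07, adjusted p = 0.00189). In HRA RAD21 rose by 0.34 ± 0.10 and STAG1 fell by −0.53 ± 0.13, and these calls were lost without 6 and 3 of the 9 libraries in turn (adjusted p up to 0.124 and 0.0804).

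Among 14 factors of CCAAT boxes and cell-cycle promoters, 3 fell and none rose in HRD, where 12% and 10.7% of all tested genes were lower and higher. NFYB, a subunit of NF-Y, fell from 2008 ± 67.2 to 1545 ± 85.6 (−0.38 ± 0.08, adjusted p = 0.00458), LIN9 of the DREAM and MuvB complexes by −0.33 ± 0.08, and FOXM1, an activator of mitotic genes, by −0.32 ± 0.10. LIN9 no longer passed once HRD replicate 2 was left out (adjusted p = 0.0524), and the call of FOXM1 without 7 of the 9 libraries in turn (up to 0.120). Without the replicate 2 libraries none of the 14 was called in HRD by limma. In HRA LIN9 fell by −0.58 ± 0.08 (adjusted p = 0.00114) and none rose, where 6.1% and 9.13% of all tested genes were lower and higher. With the replicate block 2 fell and 2 rose. The list medians were −0.10 in HRD and −0.18 in HRA.

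Of 11 genes that release a trapped topoisomerase, 1 rose and 2 fell in HRD, shares close to the 10.7% and 12% of all tested genes. These were RAD50 (0.24 ± 0.08), and MRE11 (−0.30 ± 0.09) and the protease SPRTN (−0.31 ± 0.10), but each call was lost without at least 7 of the 9 libraries in turn (adjusted p up to 0.126). In HRA NBN rose by 0.43 ± 0.09 and SPRTN fell by −0.50 ± 0.10 (adjusted p = 0.00736 and 0.00785), while the rises of MRE11 (0.36 ± 0.09) and RBBP8 (0.29 ± 0.07) were lost without 5 of the 9 libraries in turn (up to 0.0999). ZNF451, the SUMO ligase that aids TDP2, had values of 0.02 in HRA and 0.13 in HRD, and TOPORS, a ligase for TOP1, −0.04 and −0.06. Neither passed.

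Single-strand break repair, the route that follows TDP1, held the largest fall of these lists. LIG3, the ligase of this route in nucleus and mitochondria, fell 1.86-fold in HRD from 2082 ± 93.4 to 1121 ± 99.7 (−0.90 ± 0.09, adjusted p = 4.50e-05), and it lies on chromosome 17 as TOP2A does. PARP2, a break sensor, fell by −0.48 ± 0.08 (adjusted p = 0.00137). In all 2 of 7 genes fell, where 12% of all tested genes were lower, and 2 fell also without the replicate 2 libraries. In HRA POLB rose by 0.55 ± 0.08 (adjusted p = 0.00183). XRCC1 rose by 0.51 ± 0.11, lost without HRA replicate 2 (adjusted p = 0.0504), and PARP1 fell by −0.44 ± 0.10, lost without parental replicate 2 or HRA replicate 1 or 2 (up to 0.0701).

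Of 7 end-joining genes, which rejoin breaks cleaned by TDP2, 1 rose in HRD, where 10.7% of all tested genes were higher. It was the ligase LIG4 (0.36 ± 0.10, lost without 4 of the 9 libraries in turn, adjusted p up to 0.0830). In HRA PRKDC, the DNA-dependent kinase, rose by 0.65 ± 0.12 (adjusted p = 0.00579), and LIG4 and XRCC5 fell by −0.35 ± 0.10 each, calls lost without 5 and 6 of the 9 libraries in turn (up to 0.161). NBN, POLB, PRKDC and RAD21 lie on chromosome 8, where 215 of 372 other coding genes rose in HRA. The positions of the list genes that fell in HRA are not given here, so those falls may also share a region. LIG4 was 1.63-fold higher in HRD than in HRA (0.71 ± 0.10, adjusted p = 0.000530), and PRKDC and MRE11 were lower there by −0.70 ± 0.12 and −0.65 ± 0.09.

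None of 5 partners of the type IA enzymes (BLM, RMI1, RMI2, TDRD3 and FMR1) was called by limma or edgeR in any comparison. In HRA TDRD3 had the lowest value (−0.29 ± 0.10, adjusted p = 0.0623), the 1 partner there with an unadjusted p below 0.05, and DESeq2 called 1 partner lower. Their values against parental cells ran from −0.29 to 0.13 in HRA and from −0.13 to 0.13 in HRD. TOP6BL, listed as C11orf80, is a meiotic relative of type II enzymes. It rose in HRA from 212 ± 28.9 to 317 ± 17.0 (0.58 ± 0.15, adjusted p = 0.0221) but did not pass without 5 of the 9 libraries in turn (up to 0.0750).

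**Figure D5:**
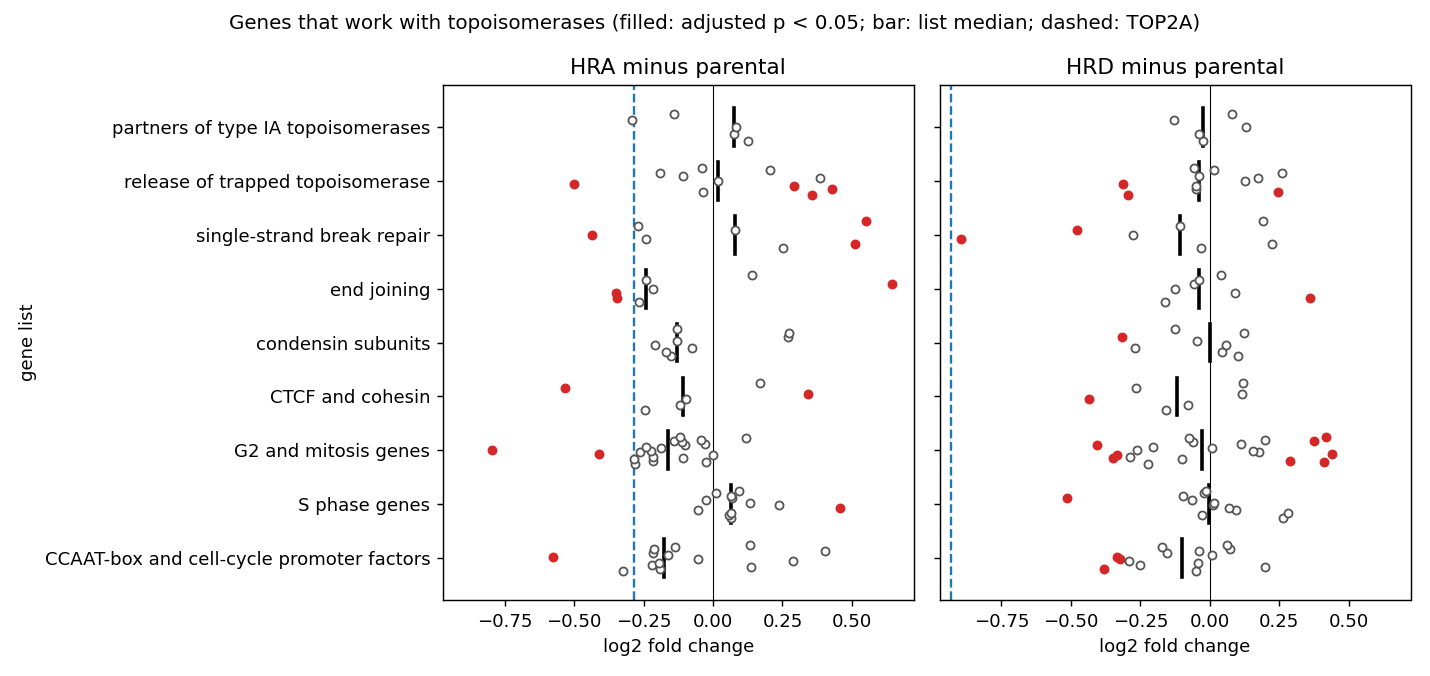
Log2 fold change against parental cells (horizontal axes) of every tested gene of 9 lists, for HRA (left) and HRD (right), filled where the adjusted p is below 0.05, with bars at list medians and a dashed line at TOP2A. In HRD all list genes lie to the right of TOP2A (−0.93), LIG3 (−0.90) being the closest.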

How the data were processed

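The deposited signal holds gene-level reads scaled by 1 factor for each of 9 libraries, for 20637 genes. The submitters' processing notes name HTSeq 0.11.1, DESeq2, TopHat2 2.1.1, Cufflinks 2.2.1, Bowtie2 2.3.5.1 and Picard, with hg19. Their order, the annotation and the strand setting are not given in the sources used here. Dividing each library's values by its smallest step gave whole reads for 100% of them (tolerance 0.001), and 1 read is worth 0.496 to 1.51 normalized reads.

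The 12569 genes that reached 10 in 3 or more libraries were fitted as log2(value + 1) in 1 limma 3.58.1 model of all 9 libraries with a variance trend (R 4.3.3), and p-values were adjusted over all tested genes (Benjamini-Hochberg, threshold 0.05). An exact permutation test of 3 against 3 cannot go below p = 0.1 and was not used. Fold changes are on this log2 scale. edgeR 4.0.16 and DESeq2 1.42.0 on the recovered reads were alternatives, and the fits were tested on simulated data. Members, lists and rules were chosen with earlier results of these data known. Text names the 8 genes, up to 3 called genes per list and direction, the 3 most similar profiles and adjacent neighbours.

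Gene order (12277 tested genes placed) and promoters came from RefSeq tables of GRCh38.p14, and exon lengths of coding transcripts from GENCODE 29. Deviations of parental and HRA libraries with the same number were correlated (0.22, 0.38 and 0.14), so the replicate number may pair them. The sample titles give replicate numbers only. Replicate 1 was also the deepest library of each group, and whether depth gives such correlations was not tested. For HRD with parental cells they were −0.08, 0.26 and 0.29, and for HRD with HRA −0.03, 0.41 and 0.23. In each HRD comparison the lowest value was negative, while the others lay above 0.22. Whether the replicate number pairs the HRD libraries cannot be decided from such mixed values.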

Additional observations from a re-analysis of the deposited data

How the results depend on the processing

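Limma counts of the 8 genes called in HRA went from 1 to 2 with DESeq2, with the replicate number as a block and with edgeR and that block. In HRD against parental cells the count stayed at 2 except for 1 without replicate 2 of every group (a setting chosen after earlier results were seen). Between HRD and HRA it went from 5 to 3 without the filter on low values, without the variance trend and without replicate 2 of every group, and to 3 to 5 when single libraries were left out. All genes called were 902 to 2331 (HRA), 2006 to 2864 (HRD) and 2379 to 3931 (HRD against HRA) without single libraries, and 686, 1415 and 1775 without replicate 2 of every group. With the block they were 2774, 3639 and 4673. The block changed no other call among the 8 genes than that of TOP1 in HRA (adjusted p = 0.0432).

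TOP2A in HRD (−1.01 to −0.85) and TOP1MT in HRA (1.08 to 1.28) passed under all 21 settings, and TDP2 in HRD (0.31 to 0.35) under 20. Values near 0 changed sign: without single libraries TOP3A in HRD ran from −0.061 to 0.056 (below 0 without parental or HRD replicate 1), TOP1MT in HRD from −0.049 to 0.15 (below 0 without parental replicate 2) and TOP3A in HRD against HRA from −0.096 to 0.021 (above 0 without HRD replicate 3). TOP1MT in HRD was −0.059 without replicate 2 of every group. The cause was not tested. Of the list genes named by rule, 11 of 17 calls in HRA, 10 of 18 in HRD and 9 of 27 between HRD and HRA were lost without at least 1 library, and none changed sign in any setting. With 2 libraries a group fewer genes pass, so a call lost there says little.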

Other observations

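TOP1MT and one form of TOP3A act on mitochondrial DNA, so the reads of the 13 protein genes of that genome are given here as values, with no test. They took 2.14%, 2.39% and 2.39% of the reads in parental replicates 1, 2 and 3, 1.82%, 1.67% and 2.63% in HRA, and 2.01%, 2.00% and 3.13% in HRD. The HRA libraries, in which TOP1MT was raised, lay on both sides of the parental ones. RNA was selected by its poly(A) tail, which limits what these shares say of mitochondrial transcripts.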
